A study of Mus musculus with 9 samples.

Results

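The replication-dependent histone genes of the mouse were described in 3 cell populations sorted from the fetal testis. Members were taken by name: genes whose GENCODE M21 symbol begins with Hist1h, Hist2h, Hist3h or Hist4h, that are annotated as protein coding and that have a line in the deposited count table. This gave 59 of the 38560 genes in that table, with 6 genes for the linker histone H1, 18 for H2A, 15 for H2B, 7 for H3 and 13 for H4. On GRCm38 (mm10), the assembly of all coordinates here, 47 of them lie in the Hist1 cluster on chromosome 13 (21715763 to 23934851). A further 9 lie in the Hist2 cluster on chromosome 3 (96219865 to 96269141), 2 in Hist3 on chromosome 11 (58948920 to 58956830), and Hist4 on chromosome 6 is the single gene Hist4h4 (136801553 to 136804415). Another 8 such genes of the annotation, among them 5 of the Hist1 H3 genes, were not analysed here.

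The study set out to purify fetal Leydig cells. It sequenced total RNA from Leydig, Interstitial and Sertoli populations, with a replicate A, B and C of each. All came from gonads of Sf1-eGFP mice at 12.5 days post coitum, in which a green fluorescent protein is driven by Sf1 regulatory sequence; the gonads were recognised as testes by their cords and the cells were stained for CD31 to take out germ and endothelial cells. Each sample pooled the cells of about 10 sorts made on different days, so a replicate is a pool of many litters, and replicate C was taken by elimination as the mix of A and B that the protocol mentions. Leydig, Interstitial and Sertoli are the names the labels give to enriched populations, with sorting gates that the sources used here do not give.

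Histones are the proteins around which DNA is wound. H2A, H2B, H3 and H4 form the core of the nucleosome and H1 binds the DNA between cores. A cell that copies its genome must also make new histones, and the genes of this family are switched on for S phase by factors such as NPAT. Their mRNAs have no introns and usually no poly(A) tail: they end just after a short stem-loop that is bound by the stem-loop binding protein SLBP, which is needed for processing, translation and timed decay. A library made from total RNA, as here, keeps such transcripts, while one selected for poly(A) loses most of them.

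The stem-loops of these genes, which define the family, were read from the GENCODE M21 transcripts and are shown because 1 pair of bases set the H4 genes apart from every other class. A stem of 6 paired bases around a loop of 4 was found in 41 of the 59 genes. For the rest, the letters are not in the annotated models, from which nothing follows about the mRNA. The capitals mark the 16 bases of the stem-loop, with up to 4 flanking bases on each side in lower case, and each line gives 1 gene of each form.
Hist1h2ab (H2A), the form of 23 genes of H1, H2A, H2B and H3: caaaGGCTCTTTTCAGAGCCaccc
Hist1h2bb (H2B), the form of 5 genes of H1, H2B and H3: caaaGGCTCTTTTAAGAGCCaccc
Hist2h2ac (H2A), its own form: aaaaGGCTCTTTTTAGAGCCacca
Hist1h4f (H4), the form of 7 H4 genes: caaaGGCCCTTTTCAGGGCCaccc
Hist2h4 (H4), the form of 2 H4 genes: taacGGCCCTTTTTAGGGCCaacc
Hist1h4j (H4), the form of 2 H4 genes: taaaGGTCCTTTTCAGGACCacca
Hist1h4a (H4), its own form: caaaGGCCCTTCTCAGGGCCgccc
Counted from 1 at the 5′ end of the 16 bases, and against the form of Hist1h2ab, all 12 H4 stem-loops carried both T4C and A13G, which exchange 1 base pair of the stem. None of the 29 stem-loops of the other classes carried either.

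Promoters also differed by class. RefSeq promoter windows on GRCm38.p6 were matched for 55 of the 59 genes, and 4 motifs were searched on both strands in the 250 bases before the start. CCAAT was in 80% of the histone windows, against 33.8% of all 32851 windows. It was in all 6 H1, 18 H2A and 13 H2B windows but in 3 of 12 H4 windows. The TATA box letters TATAAA were in 47.3% of histone windows against 12.4% of all. The octamer ATTTGCAT was in 7 H2A and 4 H2B windows and in no window of another histone class (20% of histone windows against 1.6% of all). GGTCCG, the core of an element known from H4 promoters, was in 9 of 12 H4 windows and in none of the other histone windows, against 6.72% of all windows. Of the 55 table windows of 300 bases, 20 overlapped another histone window, as in head-to-head pairs, so some matches count for both genes. A match describes the letters only. The 150 bases before the start are printed for 3 genes that the results below turn on, 5′ to 3′ on the strand of the gene, with these motifs in capitals.
Hist1h2ab (H2A, chr13:23750938-23751087, plus strand): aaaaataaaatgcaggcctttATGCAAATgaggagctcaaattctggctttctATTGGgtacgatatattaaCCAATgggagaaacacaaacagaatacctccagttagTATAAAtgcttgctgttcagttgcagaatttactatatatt
Hist1h4f (H4, chr13:23551669-23551818, minus strand): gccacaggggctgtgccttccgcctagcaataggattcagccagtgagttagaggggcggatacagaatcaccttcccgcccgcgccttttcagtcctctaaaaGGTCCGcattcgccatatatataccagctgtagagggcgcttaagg
Hist3h2ba (H2B, chr11:58948761-58948910, plus strand): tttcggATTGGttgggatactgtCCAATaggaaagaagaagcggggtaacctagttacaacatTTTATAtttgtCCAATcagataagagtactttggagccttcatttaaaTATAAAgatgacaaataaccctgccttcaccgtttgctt
The H2A promoter holds the octamer, CCAAT on each strand and TATAAA. In these bases the H4 promoter holds GGTCCG and none of the other 3 motifs, and the Hist3h2ba promoter repeats CCAAT and TATAAA and lacks the octamer in these bases.

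Reads assigned to genes numbered 33.12 to 39.24 M per library (M, 1e6). Levels are given as TMM-normalised CPM, reads per 1e6 reads in genes after a scaling factor per library. The 12 Sertoli markers were lower in Leydig (12 of 12) and in Interstitial (12 of 12) than in Sertoli. They were not low in Leydig, where 11 were higher and 1 lower than in Interstitial. Their summed level was 1506 to 1588 CPM in Leydig, 312 to 356 CPM in Interstitial and 4545 to 4849 CPM in Sertoli. The 8 fetal Leydig markers did not set Leydig clearly apart: 8 were higher in Leydig than in Interstitial, but 1 was higher in Leydig than in Sertoli, and their summed level was 292 to 535 CPM in Leydig against 322 to 386 CPM in Sertoli. Erythroid markers summed to 164 to 587 CPM in Leydig, 13934 to 14644 CPM in Interstitial and 170 to 485 CPM in Sertoli. Germ cell markers summed to 100 to 315 CPM in Leydig, 1051 to 1185 CPM in Interstitial and 96.1 to 142 CPM in Sertoli. Endothelial markers summed to 264 to 301 CPM in Leydig, 273 to 312 CPM in Interstitial and 53.3 to 56.4 CPM in Sertoli. Macrophage markers summed to 13.9 to 24.3, 53.1 to 82.8 and 1.44 to 2.05 CPM in the same order. Interstitial progenitor markers summed to 1889 to 2111, 1364 to 1407 and 705 to 764 CPM. Called higher in Leydig than in Sertoli were 11 of 11, 10 of 10 and 9 of 10 genes, and 0 lower. The part of such cells in the histone differences was not tested. In such bulk samples fewer cells of a type and less RNA per cell cannot be told apart.

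Near-identical copies limit what can be said of a single gene. The median gene had 49.5% of its 50-base words in another gene's transcript, and 28 of 59 genes had at least 50%. Treatment of reads with several matches is not given in the sources used here. The summary lines of the counting set 0 reads aside as not uniquely aligned. This does not show whether such reads were removed beforehand or were counted. Hist2h2aa2 and Hist2h3c1, all of whose words are shared, had 0 reads in all 9 libraries, which allows up to 3 reads in each. Values of pairs such as Hist1h2ao and Hist1h2ap, Hist1h2bq and Hist1h2br, or Hist1h4m and Hist1h4n are uncertain for the same reason. The H1 genes Hist1h1a, Hist1h1b and Hist1h1t and the H2B gene Hist2h2be share no word. Another counted gene overlaps 10 of the 59, 6 on the same strand and 5 on the opposite one, so that for Hist1h2be, Hist1h1e and Hist2h2aa1 reads of the gene and its neighbour cannot be told apart. The strand setting of the counting is not given either.

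The family as a whole took 0.604%, 0.566% and 0.595% of the reads in genes in replicates A, B and C of Leydig. In Interstitial it took 0.683%, 0.491% and 0.596%, and in Sertoli 0.432%, 0.396% and 0.377%. All Leydig and all Interstitial libraries thus lay above all Sertoli libraries, while Leydig lay within the wide Interstitial range. The mean of replicates A and B was 0.585% ± 0.027 in Leydig, 0.587% ± 0.14 in Interstitial and 0.414% ± 0.025 in Sertoli (SD, n = 2).

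**Figure D1:**
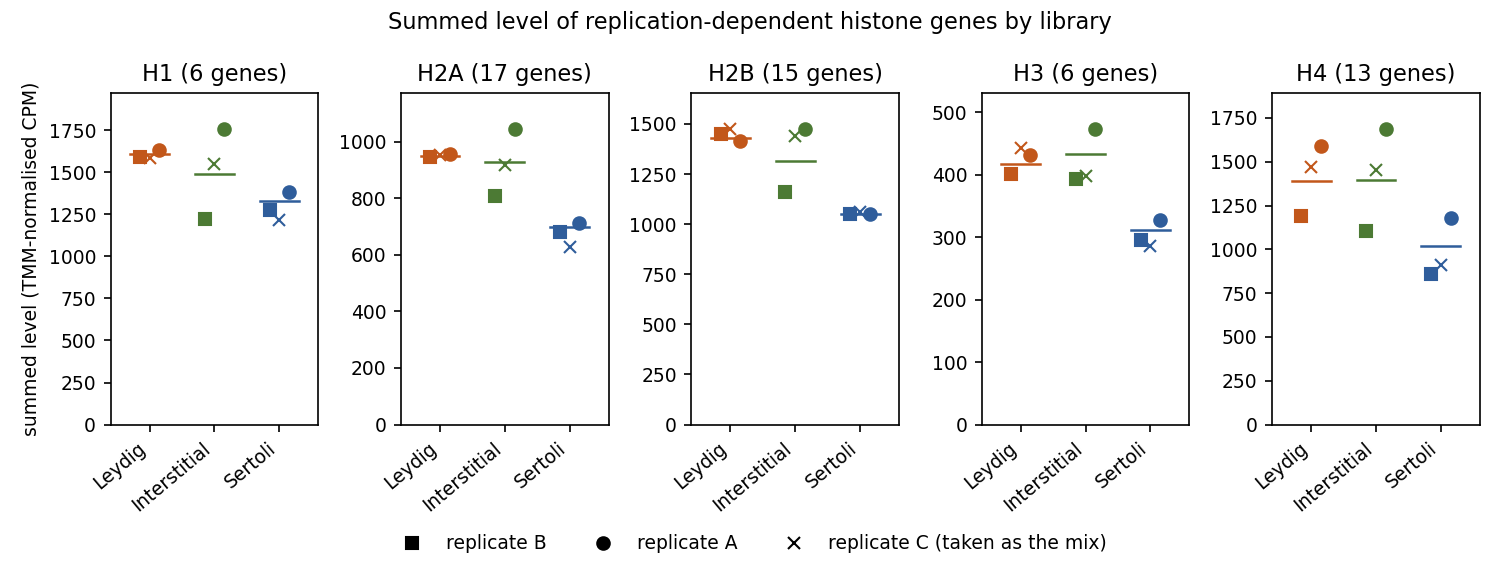
Summed TMM-normalised CPM of the histone genes of each class (one panel per class), by population, with one symbol per library and a line at the mean of replicates A and B. Sertoli is lowest in every class by mean; in H4 replicate B lies below replicate A in all 3 populations, with 1188 against 1592 CPM in Leydig, 1103 against 1687 CPM in Interstitial and 860.3 against 1181 CPM in Sertoli.

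Levels per length differed widely within each class. The measure is CPM per kb of annotated exon, averaged over replicates A and B of the 3 populations; a long annotated isoform lowers it, as for Hist1h1d with 7425 exon bases. Among the 57 genes that passed the filter on low counts, the medians were 174 CPM per kb for H1, 85.5 for H2A, 106 for H2B, 104 for H3 and 181 for H4. Highest in their class were Hist1h1a (451 CPM per kb), Hist1h2ak (273), Hist1h2bb (284), Hist1h3a (161) and Hist1h4h (342). The lowest were Hist1h1t, the H1 variant of spermatocytes, at 4.67 CPM per kb, Hist3h2a at 3.26, Hist2h2be at 3.00, Hist2h3c2 at 60.1 and Hist2h4 at 16.5.

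Leydig against Sertoli compares the population of interest with the population labelled Sertoli, whose markers were also present in Leydig. Histone genes were mostly higher in Leydig, most of them by a modest amount, with log2 values from -0.15 to 1.68. Of the 57 genes tested, 31 were called higher in Leydig at an adjusted p under 0.05, against a background of 16.9% of all genes called higher. None was called lower by edgeR, with a background of 20.6%; at an unadjusted p under 0.05 the number lower was 0 as well, and DESeq2 and limma voom also called 0. The median log2 fold change was 0.46 over the 57 genes and -0.01 over all 18048 genes tested. In 45 of the 57 genes both Leydig pools lay above both Sertoli pools (31.4% of all genes did) and in 1 both lay below (35.5% of all genes).

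By class, 12 of 17 H2A, 12 of 15 H2B and 5 of 6 H3 genes were called higher in Leydig, but 1 of 6 H1 and 1 of 13 H4 genes. The H4 count depended on the fit: with the replicate letter as a block, 13 of 13 H4 and 1 of 6 H1 genes were called higher. The median log2 fold change was 0.47 for H4, as for H2A and H2B, and the H4 sums differed more between pools, replicate B being below replicate A in both populations. The H4 summed level was 1390 ± 285 CPM in Leydig and 1021 ± 227 CPM in Sertoli (SD, n = 2). For H2A the sums were 951.2 ± 9.48 CPM in Leydig and 697.4 ± 21.2 CPM in Sertoli, and for H2B 1431 ± 24.1 against 1053 ± 0.736 CPM. H3 summed to 416.4 ± 21.6 CPM in Leydig and 311.7 ± 22.3 CPM in Sertoli. H1 summed to 1611 ± 29.3 CPM in Leydig and 1328 ± 75.2 CPM in Sertoli. The count of calls depended on which Sertoli pools were fitted: 15 genes were called higher when Sertoli replicate A was left out, and 11 when Sertoli replicate B was.

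Hist3h2ba, an H2B gene of the small Hist3 cluster (ENSMUSG00000056895, chromosome 11, 58948920 to 58949533), had the largest difference. It was at 12.5, 12 and 13.4 CPM in the Leydig libraries (replicates A, B and C here and below), against 3.78, 3.86 and 3.77 CPM in Sertoli. The groups were far apart, a 3.20-fold difference with a log2 value of 1.68 ± 0.17 (SE, edgeR adjusted p 8.27e-05). The authors' deposited table gives 1.78 for it. Hist3h2ba is the only member in that table of 1932 genes, so it gives no value for the other members called here.

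The others were H2A and H3 genes of the Hist1 cluster. Hist1h2ab (ENSMUSG00000061615, chromosome 13, 23751126 to 23751598), whose promoter is shown above, was at 141, 149 and 140 CPM in Leydig and at 84.8, 101 and 88.4 CPM in Sertoli. Every Leydig library lay above every Sertoli library, and the log2 difference was 0.64 ± 0.14 (SE, edgeR adjusted p 0.00608, and 0.0676 without Sertoli replicate A). Hist1h2ae was at 46.9, 55.1 and 51.0 CPM in Leydig and 32.4, 35.3 and 31.1 CPM in Sertoli, again with no overlap (0.59 ± 0.14 SE, adjusted p 0.0106, and 0.0916 without Sertoli replicate A). Hist1h2ad was at 26.2, 24.7 and 24.1 CPM in Leydig and 18.1, 16.9 and 15.9 CPM in Sertoli (0.54 ± 0.18 SE, adjusted p 0.0423). This call was lost when Leydig replicate A (adjusted p 0.0839), Sertoli replicate A (0.133) or Sertoli replicate B (0.193) was left out. Hist1h3b, which encodes the replication-coupled H3, was at 72.6, 70.6 and 78.0 CPM in Leydig and 51.0, 47.5 and 49.2 CPM in Sertoli (0.54 ± 0.10 SE, adjusted p 0.00308); its call held with any library left out.

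Of the 3 most abundant H2A genes, Hist1h2ab and Hist1h2ak were called higher in Leydig and Hist2h2aa1 was not (0.26 ± 0.13 SE, adjusted p 0.17), while the 3 of H2B were all called. Hist1h2ak was at 122, 114 and 116 CPM in Leydig and 86.9, 83.6 and 73.3 CPM in Sertoli. Hist1h2bb was at 160, 173 and 170 CPM in Leydig and 118, 112 and 120 CPM in Sertoli, and Hist1h2bc was at 140, 133 and 152 CPM in Leydig and 110, 106 and 116 CPM in Sertoli. None of these 3 genes overlapped between the populations, and all were called higher in Leydig. Hist1h2be, which overlaps Hist1h1e, was at 208, 202 and 202 CPM in Leydig and 148, 147 and 152 CPM in Sertoli. Hist1h3a was at 93.1, 87.9 and 92.7 CPM in Leydig and 73.2, 64.8 and 61.8 CPM in Sertoli. Both were called higher in Leydig (log2 0.47 and 0.39). Leaving out Sertoli replicate B ended the call of Hist1h2ak, Hist1h2bb, Hist1h2bc, Hist1h2be and Hist1h3a; leaving out Sertoli replicate A ended those of Hist1h2bb, Hist1h2be and Hist1h3a, and leaving out Leydig replicate A that of Hist1h3a. DESeq2 did not call Hist1h2bb (adjusted p 0.0678).

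Of the 3 abundant H1 genes 1 was called. Hist1h1a was at 358, 409 and 359 CPM in Leydig and at 260, 276 and 241 CPM in Sertoli, and was the H1 gene called higher (0.52 ± 0.16 SE, adjusted p 0.0298). Its call was lost without Leydig replicate B, Sertoli replicate A or Sertoli replicate B and with DESeq2. Hist1h1c, a linker histone also made outside S phase, was at 350, 289 and 331 CPM in Leydig and at 313, 265 and 264 CPM in Sertoli; the groups overlapped (0.14 ± 0.14 SE, adjusted p 0.463). Hist1h1d was at 339, 345 and 326 CPM in Leydig and 284, 271 and 250 CPM in Sertoli, without overlap but below the threshold (0.30 ± 0.17 SE, adjusted p 0.211).

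Leydig against Interstitial gave hardly any difference in the family. One gene, the H2B gene Hist1h2bf, was called higher in Leydig, against 22% of all genes, and 3 were called lower, against 23.2%. The median log2 fold change was 0.07, and 0.01 over all genes. In 7 of 57 genes both Leydig pools lay above both Interstitial pools (37.1% of all genes did) and in 6 both lay below (37.2%). No H3 and no H4 gene was called by edgeR, DESeq2 or limma voom, and 0 of them had an unadjusted p under 0.05. The 2 Interstitial pools differed from each other: without Interstitial replicate A, 17 genes were called higher in Leydig, and without Interstitial replicate B 6 were called lower.

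Hist1h2bf (ENSMUSG00000069268, chromosome 13, 23573736 to 23574196) was at 104, 99.2 and 94.9 CPM in Leydig and at 87.0, 70.9 and 80.5 CPM in Interstitial. Every Leydig library was higher, by 0.36 ± 0.09 on the log2 scale (SE, adjusted p 0.0133), and the call was lost without Interstitial replicate B (0.20, adjusted p 0.103). It was also higher in Leydig than in Sertoli, where it was at 74.1, 77.4 and 71.4 CPM (0.42, adjusted p 0.00745).

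The abundant genes showed how the Interstitial pools spread around Leydig. In Interstitial, Hist1h1a was at 420, 284 and 386 CPM, Hist1h1c at 363, 281 and 316 CPM and Hist1h1d at 396, 249 and 343 CPM. Among the core histones there, Hist1h2ab was at 141, 103 and 132 CPM, Hist1h2ak at 132, 105 and 113 CPM, Hist1h2be at 203, 154 and 192 CPM, Hist1h2bb at 182, 123 and 172 CPM and Hist1h2bc at 131, 114 and 133 CPM. Hist1h3a was at 112, 84 and 96.3 CPM and Hist1h3b at 75.3, 60.4 and 68.3 CPM in Interstitial. Replicate B was the lowest Interstitial library for each of these 10 genes. Hist2h2aa1, which is almost wholly shared with near copies, was at 144, 128 and 142 CPM in Leydig, 166, 126 and 142 CPM in Interstitial and 124, 103 and 98.3 CPM in Sertoli. Hist1h3c was at 78.1, 69.3 and 77 CPM in Leydig, 83.9, 56.5 and 73.4 CPM in Interstitial and 58.6, 52.5 and 51.2 CPM in Sertoli. For both genes the Leydig libraries lay within the Interstitial range and above every Sertoli library.

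In Interstitial against Sertoli most called histone genes were higher in Interstitial. Germ cell and erythroid markers, whose sums are given above, were higher there too, and their part in these calls was not tested. Of 57 genes, 31 were called higher in Interstitial, against a background of 32.7%, and 1 was called lower, against 29.1%. The median log2 fold change was 0.41, and 0.04 over all genes. Both Interstitial pools lay above both Sertoli pools in 36 genes (43.4% of all genes did) and below them in 2 (38.6%). Called higher were 12 of 17 H2A, 8 of 15 H2B, 5 of 6 H3, 5 of 13 H4 and 1 of 6 H1 genes. With the replicate letter as a block, 13 of 13 H4 and 3 of 6 H1 genes were. Both comparisons share the Sertoli libraries, so they are not independent. The count was 17 without Interstitial replicate A, 52 without Interstitial replicate B and 15 without Sertoli replicate B.

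**Figure D2:**
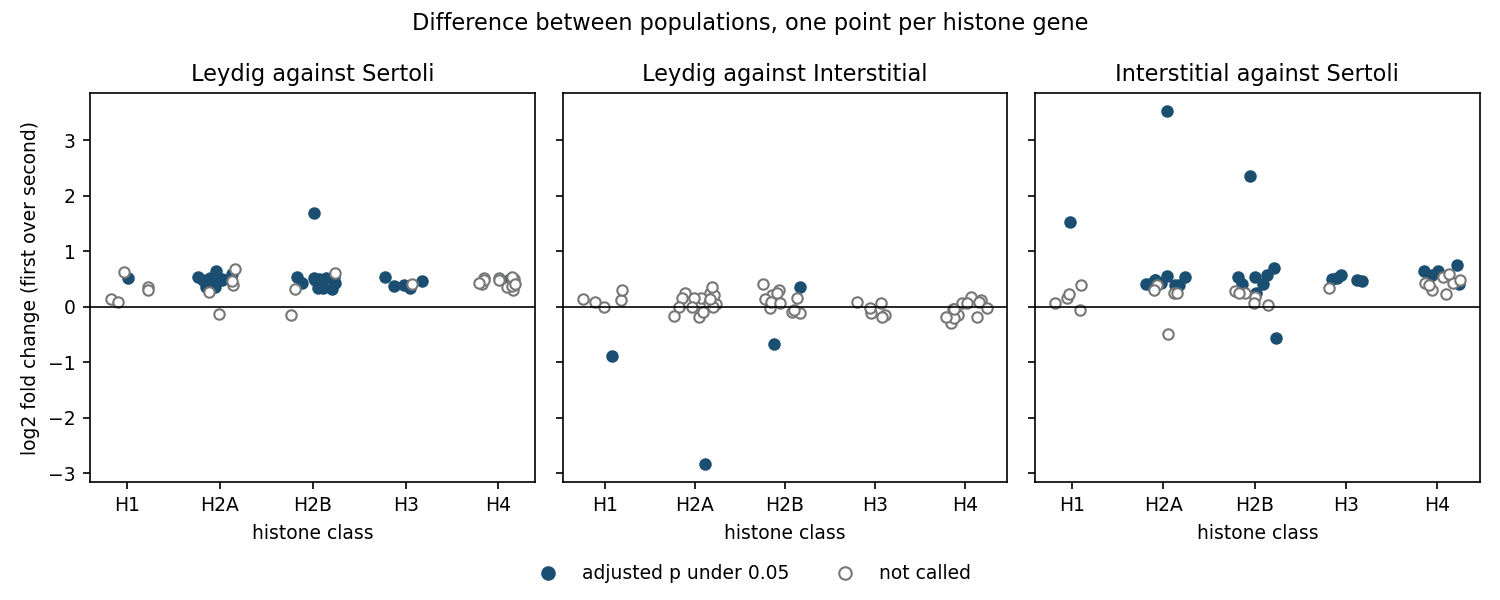
Log2 fold change of each of the 57 tested histone genes (points; filled where the adjusted p was under 0.05), by class, in the 3 comparisons named above the panels. The medians are 0.46 and 0.41 in the comparisons of Leydig and of Interstitial with Sertoli and 0.07 in Leydig against Interstitial, with Hist1h2aa (-2.84 and 3.52), Hist3h2ba and Hist1h1t apart.

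A few genes did not follow the rest. Hist1h2aa encodes an H2A variant of the male germ line (ENSMUSG00000060081, chromosome 13, 23934462 to 23934851). In Leydig it was at 0.240, 1.21 and 0.432 CPM, from 8, 42 and 16 reads. It was at 5.47, 5.07 and 5.29 CPM in Interstitial, and in Sertoli at 0.433, 0.482 and 0.277 CPM, from 15, 16 and 10 reads. Interstitial stood apart from both, by 3.52 ± 0.49 on the log2 scale against Sertoli (SE, adjusted p 0.000299), while Leydig lay 2.84 ± 0.46 below Interstitial (log2 fold change -2.84, adjusted p 0.00137). The authors' deposited tables give 3.81 for Interstitial against Sertoli and -3.38 for Leydig against Interstitial. Hist1h2aa is the only member in the table for Leydig against Interstitial. The table for Interstitial against Sertoli also lists Hist3h2ba and Hist1h1t, and no other member.

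Hist1h1t (ENSMUSG00000036211, chromosome 13, 23695814 to 23696725), the linker histone of spermatocytes, was at 3.43, 3.86 and 3.92 CPM in Leydig, 7.85, 5.70 and 7.44 CPM in Interstitial and 1.99, 2.74 and 2.69 CPM in Sertoli. No populations overlapped, Interstitial being highest and Sertoli lowest, with Interstitial 1.52 ± 0.23 above Sertoli on the log2 scale (SE, adjusted p 0.000412). Against Leydig the fold change on the log2 scale was -0.90 ± 0.22 (SE, Leydig over Interstitial, adjusted p 0.00947, and 0.0709 without Interstitial replicate A).

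Hist1h2ba, the testis H2B that partners Hist1h2aa and lies head to head with it, was at 13.1, 21.8 and 15 CPM in Leydig. It was at 16.6, 20.9 and 16.9 CPM in Interstitial and at 9.01, 14.1 and 9.20 CPM in Sertoli. It was called higher in Interstitial than in Sertoli at 0.70 ± 0.26 (SE, adjusted p 0.0459), a call lost when Interstitial replicate B (0.161) or Sertoli replicate A (0.288) was left out and with DESeq2 (0.15). Replicate B was the highest library in each population.

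Germ cell markers differed between the same populations as Hist1h2aa and Hist1h1t, but Hist1h2ba did not differ at the threshold between Leydig and Interstitial (-0.10 ± 0.26 SE, adjusted p 0.781). All 9 germ cell markers that passed the filter, of 10 listed, were higher in Interstitial than in Sertoli and lower in Leydig than in Interstitial. Summed over the 10, they were at 100, 315 and 157 CPM in Leydig, 1051, 1185 and 1170 CPM in Interstitial, and 142, 96.1 and 130 CPM in Sertoli. Leydig replicate B, the highest Leydig library for Hist1h2aa, was the highest for germ cell markers too. None of the defining markers Dazl, Ddx4 and Pou5f1 was at 0 in any library. The part of germ cell RNA in these values was not tested, nor was that of erythroid RNA, whose markers were higher in Interstitial in 11 of 12 genes against Sertoli.

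Hist3h2ba followed a gradient of its own. Beside the Leydig and Sertoli values above, it was at 22.8, 16.6 and 19.5 CPM in Interstitial, so that Interstitial was highest and Sertoli lowest with no overlap. Interstitial was 5.15-fold above Sertoli (log2 2.36 ± 0.17 SE, adjusted p 4.37e-06), and Leydig over Interstitial was -0.68 ± 0.15 (adjusted p 0.00584). These 3 calls of Hist3h2ba held with every library left out in turn. Its neighbour Hist3h2a was at 6.61, 8 and 6.65 CPM in Leydig, 5.11, 6.31 and 5.84 CPM in Interstitial and 6.73, 9.28 and 8.81 CPM in Sertoli, and was not called in any of the 3 comparisons. In Interstitial against Sertoli its log2 value was -0.49 ± 0.19 (SE, adjusted p 0.055), and 8 of 15 alternatives called it lower. Hist3h2a overlaps Trim17 on the same strand.

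Against the direction of the family, Hist2h2be (ENSMUSG00000068854, chromosome 3, 96221119 to 96223738) was lower in Interstitial than in Sertoli. This H2B gene was at 8.08, 8.38 and 7.08 CPM in Leydig, 5.01, 7.43 and 6.18 CPM in Interstitial and 8.95, 9.34 and 9.39 CPM in Sertoli. Interstitial and Sertoli did not overlap (-0.56 ± 0.18 SE, adjusted p 0.0239). The call was lost when Interstitial replicate A (-0.25, adjusted p 0.231), Sertoli replicate A (-0.60, 0.0744) or Sertoli replicate B (-0.54, 0.102) was left out, and with library size alone as the scaling (-0.40, 0.0828).

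**Figure D3:**
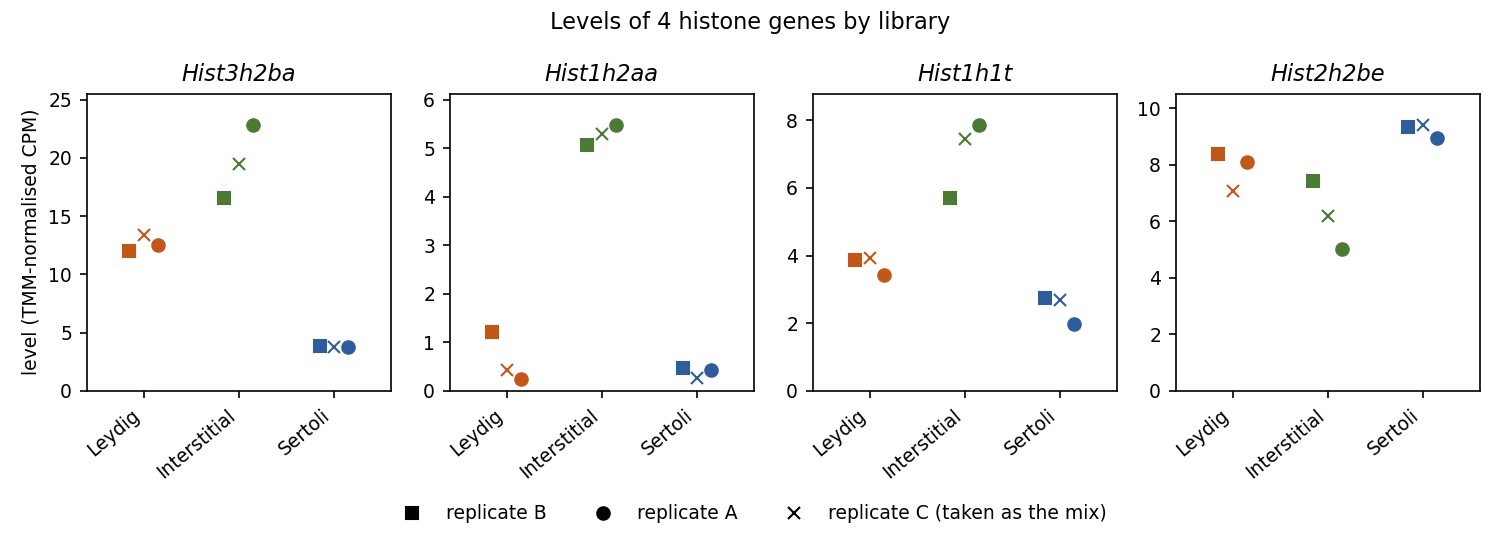
TMM-normalised CPM of Hist3h2ba, Hist1h2aa, Hist1h1t and Hist2h2be in each of the 9 libraries, by population, each panel from 0 on its own scale. The first 3 genes are highest in Interstitial (16.6 to 22.8 CPM for Hist3h2ba), and Hist2h2be is lowest there in replicate A (5.01 CPM).

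Of the remaining genes named for a large difference between Interstitial and Sertoli, Hist1h4m was at 101, 63.7 and 84.7 CPM in Interstitial and at 55.9, 42.4 and 44.5 CPM in Sertoli. The libraries did not overlap (0.75 ± 0.20 SE, adjusted p 0.0111), but the call was lost without Sertoli replicate B (adjusted p 0.103). With 89.8% of its words shared with Hist1h4n, which was at 141, 91.4 and 125 CPM in Interstitial and 85.5, 63.5 and 68.9 CPM in Sertoli (0.64 ± 0.20 SE, adjusted p 0.0228), the pair is best read together. The call of Hist1h4n was lost with DESeq2 and without Interstitial replicate A or Sertoli replicate B.

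The H4 genes held most of the family's calls between replicate B and replicate A. This comparison, averaged over the populations, describes the part of the pool difference that goes in the same direction across them. Differences in opposite directions cancel in it, so it does not measure how far pools of a population vary. Of all genes, 0.316% were called lower in B and 0.587% higher, 0.903% either way. Among the 57 histone genes, 16 were called, 15 lower and 1 higher (Hist1h2ba, log2 0.56 ± 0.09 SE, adjusted p 0.0277). The call of Hist1h2ba was lost without Interstitial replicate A (0.0539) and without either Sertoli library (0.101 and 0.102). Of the 15, 12 were H4 genes, and the others were Hist1h1c, Hist1h1e and Hist2h2aa1. Histone genes made up 26.3% of the 57 genes called lower in B across the whole table.

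All 13 H4 genes were lower in replicate B than in replicate A in Leydig, in Interstitial and in Sertoli. In the other classes this held in all 3 populations for 10 of 17 H2A, 4 of 15 H2B, 5 of 6 H3 and 2 of 6 H1 genes. The H4 sums were 1188 CPM in B against 1592 CPM in A in Leydig, 1103 against 1687 CPM in Interstitial and 860.3 against 1181 CPM in Sertoli. Replicate C, taken as the mix, had 1468, 1452 and 909.2 CPM in Leydig, Interstitial and Sertoli, between the pools in each. In every other class C was between A and B in Interstitial but outside them in Sertoli. In Leydig it was outside them for H1, H2B and H3. The sum of all histone genes in Sertoli was 4102 CPM in C against 4654 CPM in A and 4166 CPM in B. The median log2 difference of the 13 H4 genes was -0.50, and 0.00 over all genes.

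Hist1h4f (ENSMUSG00000069274, chromosome 13, 23551258 to 23551648), whose stem-loop and promoter are shown above, had the largest log2 difference of the family in this average over the populations. It was at 84.5, 88.0 and 63.9 CPM in replicate B of Leydig, Interstitial and Sertoli, against 130, 149 and 99.4 CPM in replicate A, and its log2 difference was -0.68 ± 0.04 (SE, adjusted p 0.000205). Hist1h4h was at 137, 127 and 114 CPM in B against 212, 205 and 170 CPM in A (-0.63 ± 0.04 SE, adjusted p 0.000205). Hist1h4j was at 77.4, 75.6 and 58.1 CPM in B against 114, 118 and 90.2 CPM in A (-0.61 ± 0.04 SE, adjusted p 0.000259). In none of the 3 did a B library reach any A library.

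Genes of the other clusters did the same. Hist4h4 on chromosome 6, with 6.75% of its words shared, was at 47.1, 47.7 and 32.5 CPM in B of Leydig, Interstitial and Sertoli against 66.5, 80.6 and 53.5 CPM in A (-0.66 ± 0.06 SE, adjusted p 0.00129). Hist2h4 on chromosome 3, with 1.01% shared, was at 25.1, 23.0 and 17.8 CPM in B against 32.9, 37.0 and 25.3 CPM in A (-0.53 ± 0.07 SE, adjusted p 0.0105, and 0.0524 without Sertoli replicate A). These shares are over the whole annotated models, of 2863 bases for Hist4h4 and 1630 for Hist2h4, whose stem-loops start at bases 403 and 358. They were not computed for the part up to the stem-loop, and the part of shared sequence in the pool difference was not tested. Among the more abundant H4 genes, Hist1h4a was at 135, 117 and 95.1 CPM in B against 184, 186 and 130 CPM in A, and Hist1h4d at 251, 221 and 179 CPM in B against 304, 301 and 214 CPM in A. In replicate C of Leydig, Interstitial and Sertoli, Hist1h4a was at 167, 160 and 98.7 CPM, Hist1h4d at 290, 273 and 185 CPM and Hist1h4h at 172, 166 and 122 CPM, each value between those of A and B. Not every H4 gene did so: Hist1h4k in Sertoli was at 58.8 CPM in C, below 76.6 CPM in A and 61.8 CPM in B. The H4 gene below the threshold was Hist1h4m (-0.41 ± 0.08 SE, adjusted p 0.0607).

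The number of calls depended on the Interstitial pools, the size of the H4 difference less so. A population left with 1 library adds nothing to the B over A value. Leaving out Interstitial replicate A or Interstitial replicate B thus gave the same log2 differences and is 1 check, with an H4 median of -0.44. The same holds for the Leydig and the Sertoli libraries. Hist1h4d, Hist2h4, Hist1h1c, Hist1h1e and Hist2h2aa1 were among the genes that lost their call without either Interstitial library. Over the family the number of calls either way was then 5 and 6, against 16 with all 6 libraries and 27 without Leydig replicate A or without Leydig replicate B. In Interstitial alone the other classes also had medians below 0, -0.51 for H1, -0.40 for H2A, -0.32 for H2B and -0.22 for H3, beside -0.64 for H4. In Leydig the medians were 0.06, -0.02, 0.03 and -0.13 beside -0.45 for H4, and in Sertoli -0.06, -0.09, 0.02 and -0.17 beside -0.45. Some marker lists moved with the pools too. Of the fetal Leydig markers, 3 of 8 were called lower in B (median log2 -0.55). Erythroid markers had positive values in 12 of 12 genes (median 0.89, 1 called), macrophage markers in 10 of 10 (0.53, 2 called) and germ cell markers in 8 of 9 (0.38, 0 called). Other short protein-coding genes had median B over A values of -0.07 for 200 to 399 exon bases, -0.14 for 400 to 499, -0.06 for 500 to 999 and 0.00 from 1000 bases on. These bins held 15, 24, 323 and 14732 genes. Their lower quartiles were -0.17, -0.48, -0.18 and -0.08, and their upper quartiles 0.05, 0.05, 0.16 and 0.09. Called lower were 0, 0, 3 and 14 of them, and called higher 0, 0, 3 and 96. The part of the marker lists and of short length in the H4 result was not tested. The labels do not say whether the A pools of the populations share sorting days.

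**Figure D4:**
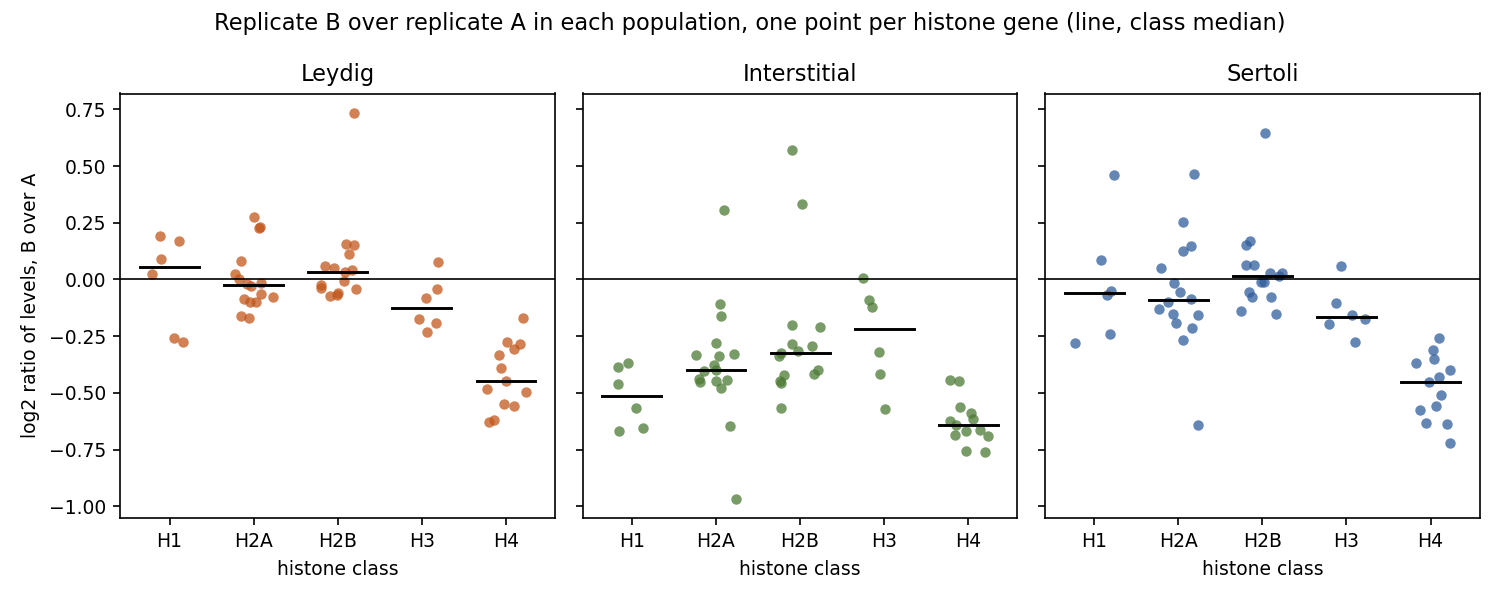
Log2 ratio of TMM-normalised CPM in replicate B over replicate A for each tested histone gene of at least 1 CPM in replicate A (points), by class, in Leydig, Interstitial and Sertoli; the lines are class medians. All 13 H4 points lie below 0 in each population, from -0.63 to -0.17 in Leydig, -0.76 to -0.44 in Interstitial and -0.72 to -0.26 in Sertoli.

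Genes that make and process histone mRNA were set beside the family. Of 22 tested genes in this list, 6 were higher and 2 lower in Leydig than in Sertoli, and 13 were higher and 1 lower in Interstitial than in Sertoli. Between Leydig and Interstitial 9 were lower in Leydig and 0 higher by edgeR, DESeq2 and limma voom, also at an unadjusted p under 0.05. Slbp, the gene of the stem-loop binding protein, was at 126, 143 and 125 CPM in Leydig, 173, 201 and 201 CPM in Interstitial and 114, 117 and 122 CPM in Sertoli. Interstitial was above both (0.70 ± 0.09 SE over Sertoli, adjusted p 0.000157), while Leydig and Sertoli did not differ at the threshold (0.22 ± 0.09 SE, adjusted p 0.0842). Npat, the S-phase activator of the clusters, was at 82, 90 and 84.8 CPM in Leydig, 94.3, 100 and 104 CPM in Interstitial and 83.4, 82.3 and 86.8 CPM in Sertoli, and was called in Interstitial against Sertoli (0.23 ± 0.07 SE, adjusted p 0.0163).

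The cyclin E gene Ccne1, whose kinase activates NPAT, differed most in this list. It was at 15.1, 18.6 and 15.1 CPM in Leydig, 31.1, 31.1 and 30.6 CPM in Interstitial and 10.4, 8.07 and 8.95 CPM in Sertoli, with no overlap between populations. Its log2 values were 1.75 ± 0.14 in Interstitial against Sertoli (adjusted p 1.05e-05), 0.86 ± 0.14 in Leydig against Sertoli (0.00159) and -0.89 ± 0.13 in Leydig against Interstitial (0.00101). Zfp473, which encodes a zinc finger of the histone pre-mRNA processing complex, was 1.23 ± 0.23 higher in Interstitial than in Sertoli (log2, SE, adjusted p 0.00142), and Leydig over Interstitial was -1.09 ± 0.22. Ccne2 (0.44 and 0.44) and Casp8ap2, a partner of NPAT in the histone locus body (0.36 and 0.51), were higher than in Sertoli in Leydig and in Interstitial. The decay factor gene Upf1 was lower in Leydig than in Interstitial (-0.49). The cleavage factor gene Cstf2 was lower than in Sertoli in both Leydig (-0.32) and Interstitial (-0.37), as was Hinfp, an activator of H4 promoters, in Leydig (-0.31, adjusted p 0.028).

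Genes listed as replication-independent histones were called in both directions. Of 11, 7 were higher and 3 lower in Leydig than in Sertoli, 4 higher and 3 lower in Leydig than in Interstitial, and 5 higher and 3 lower in Interstitial than in Sertoli. H3f3b, a gene of H3.3, was at 972, 951 and 995 CPM in Leydig, 824, 813 and 877 CPM in Interstitial and 1183, 1098 and 1198 CPM in Sertoli. Sertoli lay above every other library. The gene was lower in both Leydig (-0.25, adjusted p 0.0179) and Interstitial (-0.48, adjusted p 0.000278) than in Sertoli. The other H3.3 gene, H3f3a, was at 468, 471 and 475 CPM in Leydig, 424, 400 and 480 CPM in Interstitial and 399, 407 and 401 CPM in Sertoli, and was higher in Leydig than in Sertoli (0.22, adjusted p 0.0193). H2afz, the gene of H2A.Z, was at 340, 324 and 352 CPM in Leydig, 295, 273 and 300 CPM in Interstitial and 345, 324 and 333 CPM in Sertoli, with Interstitial below both (-0.24 in Interstitial against Sertoli, adjusted p 0.0136).

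Other genes of that list changed further. The macroH2A gene H2afy2 was higher than in Sertoli in Leydig (1.14 ± 0.08 SE, adjusted p 1.46e-05) and in Interstitial (1.03 ± 0.08 SE, adjusted p 1.03e-05). H1fx, a replication-independent linker histone gene, was also higher in Leydig (0.68) and Interstitial (1.03), and so was the centromeric H3 gene Cenpa (0.35 and 0.63). H2afx, the gene of the H2A variant marked at DNA breaks, was lower than in Sertoli in both (-0.22 in each). H2afj was lower in Leydig than in Sertoli (-0.47) and than in Interstitial (-0.51), and H1f0, the linker histone gene of resting cells, was higher in Leydig than in Interstitial (0.45).

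Histone chaperones were mostly higher in both Leydig and Interstitial than in Sertoli where they were called. Of 20 chaperone genes, 9 were higher and 1 lower in Leydig than in Sertoli, 13 higher and 2 lower in Interstitial than in Sertoli, and 2 higher and 11 lower in Leydig than in Interstitial. Nasp, which binds H3 and H4 before deposition, was at 308, 323 and 308 CPM in Leydig, 378, 399 and 408 CPM in Interstitial and 219, 220 and 234 CPM in Sertoli. Its level was higher than in Sertoli in Leydig (0.52 ± 0.06 SE, adjusted p 0.000187) and in Interstitial (0.82 ± 0.06 SE, adjusted p 5.93e-06). The H2A and H2B chaperone gene Nap1l1 was higher in both as well (0.56 in Leydig and 1.00 in Interstitial). Ubn1 (0.53 and 0.48) and Mcm2 (0.38 and 1.05), a helicase subunit that also holds histones, were higher than in Sertoli in Leydig and in Interstitial too. Daxx, a chaperone of H3.3, was lower than in Sertoli in Leydig (-0.53) and in Interstitial (-0.50). Asf1b (-0.78), Mcm2 (-0.67) and Cabin1 (-0.46) were lower in Leydig than in Interstitial, and Hjurp (0.30), the chaperone of the centromeric H3, and Atrx (0.19) were higher.

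Of 37 replication genes, 26 were lower and 3 higher in Leydig than in Interstitial, with a median log2 fold change of -0.36, while 3 of the 57 histone genes were lower. The replication genes summed to 3364, 3507 and 3390 CPM in Leydig, 4328, 4479 and 4367 CPM in Interstitial and 2844, 2760 and 2813 CPM in Sertoli. The populations were fully apart in this sum. The histone sum was 6028, 5573 and 5924 CPM in Leydig, 6437, 4687 and 5753 CPM in Interstitial and 4654, 4166 and 4102 CPM in Sertoli, with Leydig inside the Interstitial range. Against Sertoli, 25 replication genes were higher in Leydig and 30 in Interstitial (medians 0.30 and 0.69). Of 24 mitosis genes, 11 were higher and 2 lower in Leydig than in Sertoli and 13 higher and 4 lower in Interstitial than in Sertoli. Between replicate B and replicate A, edgeR, DESeq2 and limma voom called 0 replication genes, and 5 had an unadjusted p under 0.05 in edgeR (4 higher and 1 lower in B).

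**Figure D5:**
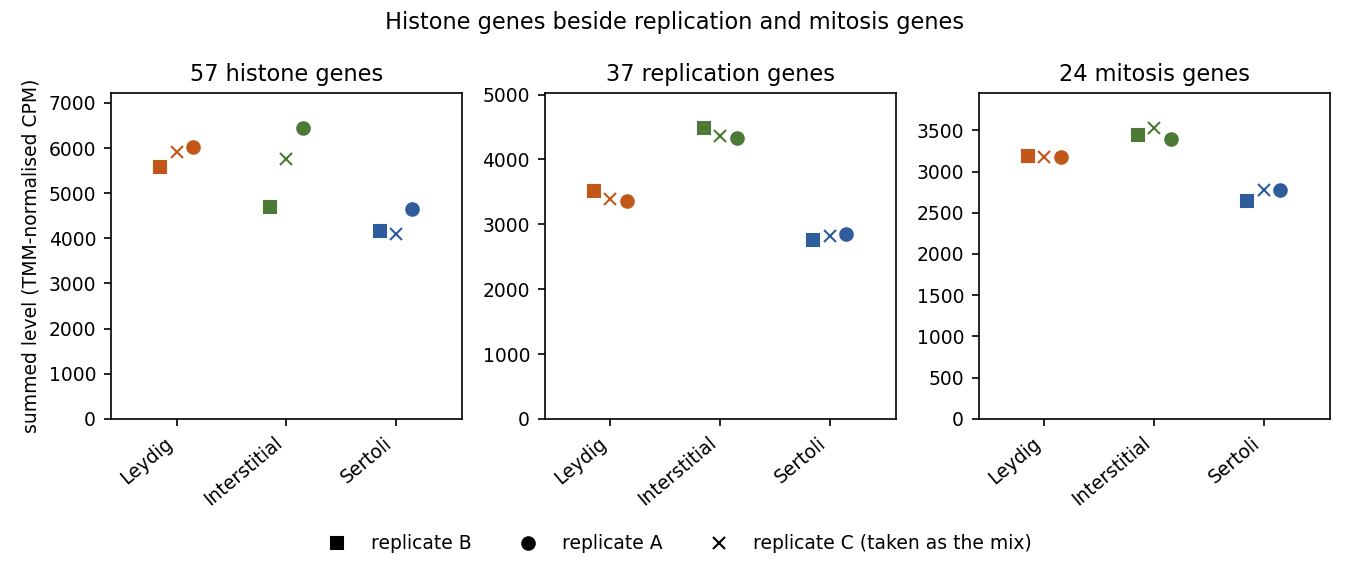
Summed TMM-normalised CPM of the 57 tested histone genes, the 37 replication genes and the 24 mitosis genes in each library, by population. Replication genes are highest in all 3 Interstitial libraries (4328 to 4479 CPM), while histone genes in Interstitial spread from 4687 to 6437 CPM and overlap Leydig.

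Across the 9 libraries, the genes outside the family whose log2 CPM was most like the log2 of the summed histone CPM were Gpr173 (Pearson r 0.972), Vegfd (0.969), the lincRNA gene Gm42743 (0.967), a gene ID with no symbol in the annotation (0.964) and Thap3 (0.963). These are the 5 highest of 11505 genes with a mean of at least 5 CPM, given as a description. The 9 libraries include replicate C, taken as a mix that shares the pools of A and B, and Gpr173 and Vegfd were at 8.70 and 5.88 CPM on average.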

How the data were processed

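Total RNA of 3 sorted populations was sequenced as 9 ribosome-depleted, stranded libraries over 4 lanes, per the labels' protocols. The deposited values are raw read counts per gene and lane; per the submitters' processing notes, TopHat2 2.0.6, mm10, HTSeq and limma were used. The authors also deposited limma tables, which hold, per the file headers, log2 fold changes and average log2 expression, p-values with adjusted p-values, and scores (moderated t and log odds). The annotation release and the handling of multiply matching reads are not stated in the sources used here. Of the 38560 gene IDs, 36722 matched GENCODE M21. Unassigned reads (5 summary lines) were left out. As a share of all counts, with the summary lines included, ambiguous reads were 0.6217 to 0.7677% and reads outside genes 32.23 to 38.52%.

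Counts were summed over lanes. Replicates A and B of the 3 populations (6 libraries, 3 residual degrees of freedom) were fitted with edgeR 4.0.16 (TMM, filterByExpr, quasi-likelihood test) in R 4.3.3; 18048 genes were tested and p-values adjusted over all of them by Benjamini-Hochberg, with calls at 0.05. Replicate C was not fitted, because it was taken by elimination as the mix of A and B, whose RNA would repeat theirs. The labels do not state this. With 2 pools per group the p-values measure spread between pools, which may be technical, not between animals. The common biological coefficient of variation was 0.0871. No 2 libraries of a population agreed within sampling noise (chi-square per degree of freedom 4.01 to 27). The fit was tested on simulated counts. A count of 0 allows up to 3 reads (0.07644 to 0.09057 CPM), and such floors cover counting error only.

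The members and gene lists were chosen with earlier results of these data known. Values in every library were given for the 3 most abundant genes of each class, the 5 called genes with the largest change per direction and comparison, and called genes against the family's direction; from the lists, the 3 largest called changes per direction. Alternatives were other scalings, filters, DESeq2 1.42.0, limma voom (limma 3.58.1), other sets of libraries, a replicate block and leaving out each library.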

Additional observations from a re-analysis of the deposited data

Results flagged for a closer look

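Reads also fell on 3 pseudogenes of the family, which the protein-coding rule leaves out, in every library above the 3 reads that a count of 0 allows. Hist1h2al had 6801 reads in all 9 libraries, Hist3h2bb-ps 1574 and Hist1h2aj 137. Hist3h2bb-ps, the neighbour of Hist3h2ba in name and sequence, was at 5.53, 5.96 and 4.68 CPM in the A, B and C libraries of Leydig, 6.77, 5.01 and 6.21 CPM in Interstitial and 2.80, 3.07 and 2.99 CPM in Sertoli. The pseudogene was higher than in Sertoli in Leydig (0.97 ± 0.19 SE, edgeR adjusted p 0.00402) and in Interstitial (1.01 ± 0.19 SE, 0.00164), in the same direction as Hist3h2ba, which shares 22.1% of its 50-base words with it. The authors' deposited table gives 1.10 for Hist3h2bb-ps in Interstitial against Sertoli. Hist1h2al was lower in replicate B than in replicate A (-0.72 ± 0.10 SE, edgeR adjusted p 0.0105), at 18.9, 17.4 and 10.6 CPM in B of Leydig, Interstitial and Sertoli and 27.7, 26.4 and 22.0 CPM in A.

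The summed H2B level was picked out because its ratio between the pools had opposite signs in 2 populations, with hardly any difference in Leydig. The log2 ratio of replicate B over replicate A was 0.03 in Leydig and -0.35 in Interstitial, from 1449 against 1414 CPM in Leydig and 1158 against 1475 CPM in Interstitial. Each ratio rests on 1 pair of libraries and the difference between them was not tested.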

How the results depend on the processing

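The number of histone genes called depended on the libraries and the filter. In Leydig against Sertoli 31 genes were higher; the number was 52 with no filter on low counts, 51 with all 9 libraries and 11 to 43 with 1 library left out, and 0 genes were lower in every setting. In Leydig against Interstitial 1 gene was higher: 7 with no filter, 2 with DESeq2, 5 with all 9 libraries and 1 to 17 with 1 library left out. There 3 genes were lower: 5 with library size alone and 2 to 6 with 1 library left out. In Interstitial against Sertoli 31 were higher: 50 with no filter, 49 with all 9 libraries and 15 to 52 with 1 library left out. There 1 was lower: 0 with library size alone and 2 with RLE size factors, no filter, the filter at 1 CPM, all 9 libraries or only the 2 populations compared, and 0 to 2 with 1 library left out. Replicate B against replicate A gave 16 calls, and 5 to 27 with 1 library left out. The cause was not tested. A change of sign was counted as reversed only where a gene was called with or without the alternative. Uncalled genes near 0 did change sign, as Hist1h4j in Leydig against Interstitial (-0.02, and -0.32 to 0.33 over the alternatives). Of the values of single genes under these settings 2860 kept their side of the threshold, 304 passed it only there, 141 lost it and 1 reversed. That was Hist1h1b in Interstitial against Sertoli, at -0.25 without Interstitial replicate A (edgeR adjusted p 0.0354) and 0.41 without Interstitial replicate B (0.00363), against 0.06 with all 6 libraries. Library size alone moved the median log2 fold change of all genes in Interstitial against Sertoli to 0.21, against 0.04.

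The replicate letters were not taken to pair the samples: the differences B minus A correlated at 0.035, 0.259 and 0.113 over all genes (Leydig with Sertoli, Leydig with Interstitial, Interstitial with Sertoli), 1 of them under 0.1, and the labels do not tie the letters to a shared day. Over the 57 histone genes alone the same correlations were 0.69, 0.464 and 0.622. With the letter as a replicate block, 48 genes were higher in Leydig than in Sertoli, 6 higher and 6 lower in Leydig than in Interstitial, and 48 higher and 2 lower in Interstitial than in Sertoli. The H4 genes gave much of the gain against Sertoli: 13 of 13 were then higher in Leydig and 13 of 13 in Interstitial, against 1 and 5 with no block. Depth was not limiting for most members; Hist1h2aa, with 8 to 42 reads in Leydig and 10 to 16 in Sertoli, is the least precise of the genes named.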
